A study of Mus musculus with 4 samples.

Results

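The endothelin and nitric oxide cGMP signalling genes of the glomerulus were followed in single-cell RNA-seq of glomeruli from young and aged mice. The set holds 10 genes chosen by name: Edn1, Ece1, Ednra, Ednrb, Nos3, Gucy1a3, Gucy1b3, Npr1, Prkg1 and Pde5a. All 10 symbols were found in the gene list of the count matrices, each as 1 row of 52636 genes.

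Glomeruli were taken from mouse kidneys by perfusion with magnetic beads followed by enzymatic digestion, and single cells were captured with droplet 3' chemistry that tags each captured RNA molecule with a unique molecular identifier (UMI). The young group has 2 libraries and the aged group has 2, labelled as replicates 1 and 2, and neither group carries a treatment or a genetic change in the labels. The labels leave out how old the mice were in months, their strain and sex, and how many mice a library holds. Nothing says that the replicates came from separate animals, so the p-values measure only the spread between these libraries, which may be technical.

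Endothelin is a peptide made mainly by endothelial cells, cut to its active form by a converting enzyme and read by a pair of G protein-coupled receptors, of which the type A receptor on muscle-like cells drives contraction and the type B receptor on endothelium drives nitric oxide release and clears the peptide. Nitric oxide from endothelial cells diffuses to mesangial and smooth muscle cells and binds soluble guanylate cyclase, which makes cGMP, and the membrane cyclase Npr1 makes cGMP when it binds atrial natriuretic peptide. The cGMP kinase Prkg1 then relaxes the contractile cell, and the phosphodiesterase Pde5a breaks cGMP down. In the glomerulus this balance sets the tone of the arterioles and of the mesangium, and with it the flow and pressure across the filter.

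The 4 libraries held 33323 cell barcodes and 124600182 UMIs, with 18457791 to 42046542 UMIs a library, and 28000 barcodes passed the filters (5035 and 6976 young, 9187 and 6802 aged). Young replicate 2 stood apart: its kept cells had a median of 1258 UMIs against 2715 to 3730 in the other libraries, and 60.8% of them fell in clusters that mixed markers of unrelated cell types, against 0.762% to 3.63% elsewhere. Such mixed clusters were left out of every class. Any pair of libraries shared 9 to 31 barcodes, at most 0.346% of the smaller library. Cells were named from marker genes, with the 10 genes kept out of the clustering, and each class is called by the name of the markers it carried (endothelial-like, podocyte-like and so on). The classes tested were endothelial cells (2369, 1294, 5722 and 4121 in young 1, young 2, aged 1 and aged 2, the order used for all sets of 4 values), podocytes (1767, 548, 977 and 651), mesangial cells (263, 154, 603 and 449), smooth muscle and renin cells (68, 50, 56 and 36) and parietal epithelial cells (31, 45, 46 and 50). UMIs were summed over the cells of a class in each library, and levels are given in CPM, the gene's UMIs with that sum scaled to 1000000 UMIs. The sums held 3793701 to 15671908 UMIs in endothelial cells, 3135739 to 7667557 in podocytes, 839203 to 4138033 in mesangial cells, 157239 to 212347 in smooth muscle and renin cells and 142505 to 440934 in parietal cells.

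The genes differed in the cell class where they were highest. Averaged over the 4 libraries, Edn1, Ece1 and Nos3 were highest in endothelial cells, and for each of these genes the lowest endothelial library lay above every library of the class next in order. Mesangial cells, next for Edn1, held 18.2% of its endothelial mean, monocyte and dendritic cells, next for Ece1, held 7.88%, and the class next for Nos3 held 6.57%. Ednra, Gucy1b3 and Prkg1 were highest in smooth muscle and renin cells. Gucy1a3 and Pde5a were highest in mesangial cells, and Npr1 was highest in podocytes. The libraries of the 2 contractile classes overlapped for Gucy1a3, Gucy1b3 and Prkg1, and did not for Ednra or Pde5a. Ednrb had 2 sites, endothelial cells and smooth muscle and renin cells, whose libraries overlapped. The order is a description of these libraries with no test.

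Outside these sites the level depended on the gene and class. Npr1 had means of 92.8 CPM in endothelial cells, 91.8 CPM in mesangial cells and 74.8 CPM in smooth muscle and renin cells. Edn1 had a mean of 42.5 CPM in mesangial cells. The other 6 of the 11 named classes were tubule, macrophage, monocyte and dendritic, neutrophil, B cell, and T and NK cell, and in these Ece1 had means of 8.34 to 33.8 CPM. Edn1 had 0 UMIs in B cells in all 4 libraries, and Ednra had 0 UMIs in all 6 of those classes. Parietal epithelial cells held Pde5a at 19.3 to 63.2 CPM, Prkg1 at 14.03 to 47.6 CPM and Ece1 at 7.70 to 61.3 CPM, ranges that rest on few cells a library. Prkg1 in podocytes, at 34.4 to 50.4 CPM, was 34.6% of its mean in smooth muscle and renin cells. Of all Edn1 UMIs in the named classes, endothelial cells held 93.8% to 96.6% in each library, a share that also depends on how many cells of each class were captured.

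**Figure D1:**
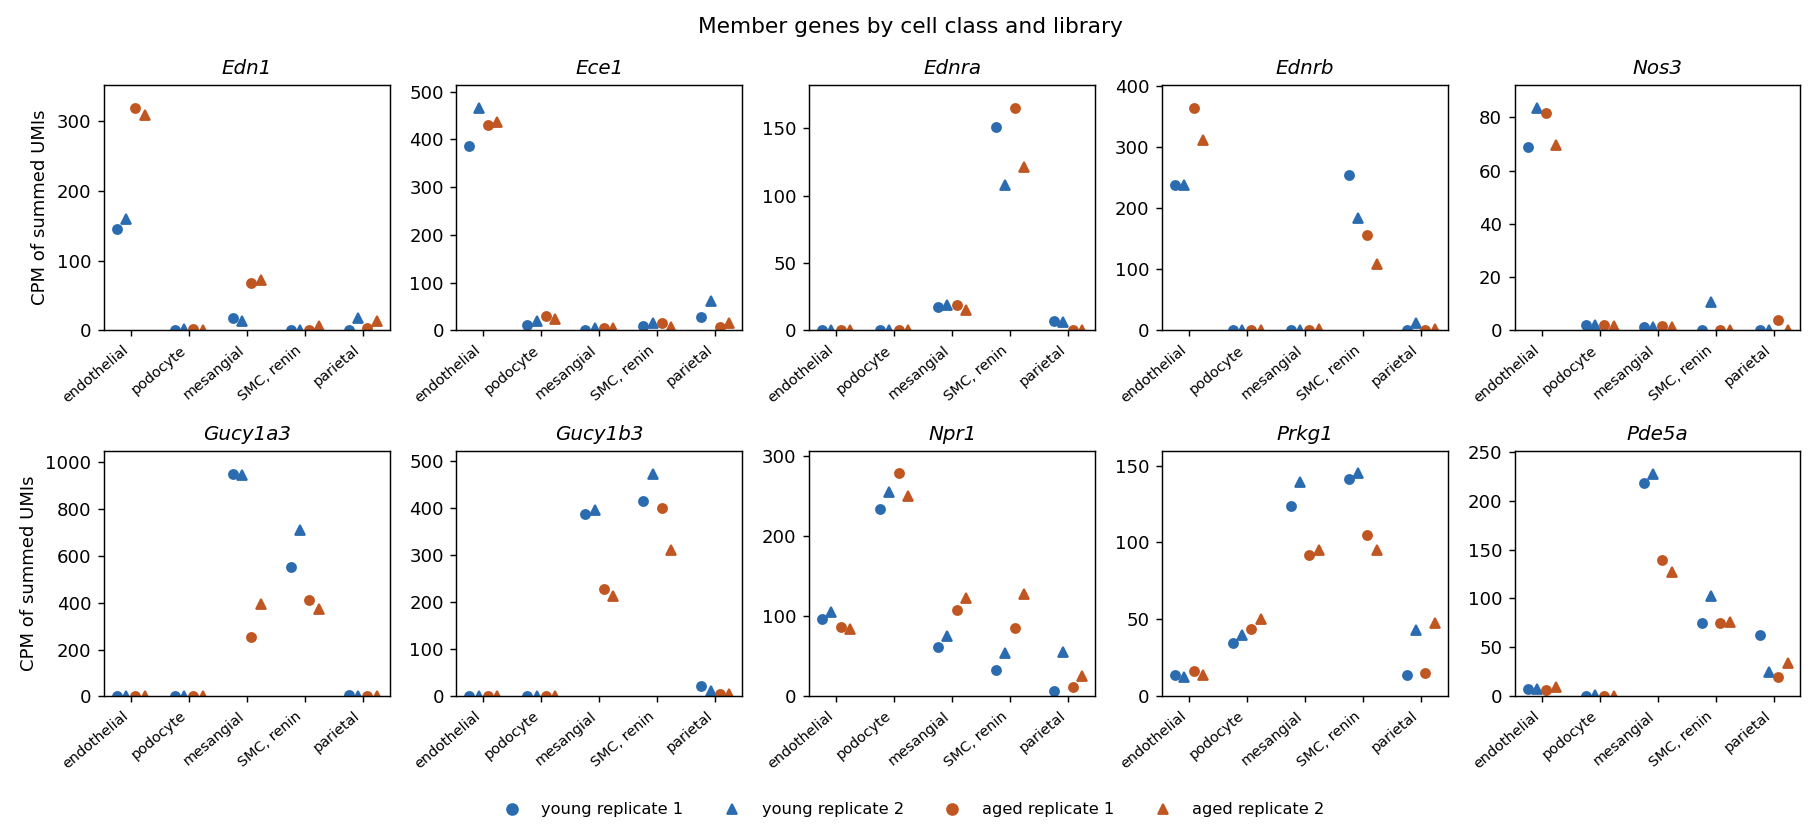
Level of each gene in CPM of summed UMIs (y axis, starting at 0) in 5 cell classes (x axis), with 1 point for each library and young libraries in blue, aged libraries in orange. The aged points of Edn1 lie above the young points in endothelial and mesangial cells, and the aged points of Gucy1a3, Gucy1b3 and Pde5a lie below the young points in mesangial cells.

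With age, Edn1 and its type B receptor rose in endothelial cells, Edn1 and Npr1 rose in mesangial cells, both subunits of soluble guanylate cyclase and Pde5a fell in mesangial cells, and Ece1 rose in podocytes. Each comparison used edgeR's quasi-likelihood test on the summed UMIs with Benjamini-Hochberg adjustment over all genes tested in the class, and a gene was called at an adjusted p under 0.05. In endothelial cells 7 of the 10 genes passed the filter on low counts and 2 were called, both higher in aged libraries, against 6.49% of all genes tested called (4.31% higher and 2.18% lower). In mesangial cells 8 passed and 5 were called, 2 higher and 3 lower, against 5.62% of all genes (3.65% higher and 1.97% lower). In podocytes 5 passed and 1 was called, higher, against 6.4%. In smooth muscle and renin cells 7 passed and 0 were called by edgeR, with 3 at an unadjusted p under 0.05 and 0 called by DESeq2, against 1.7%. In parietal cells no member of the set passed the filter, and 3.29% of all genes were called there. Over the classes this gives 27 tests and 8 calls. Libraries whose absence ended a call are named beside it.

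**Figure D2:**
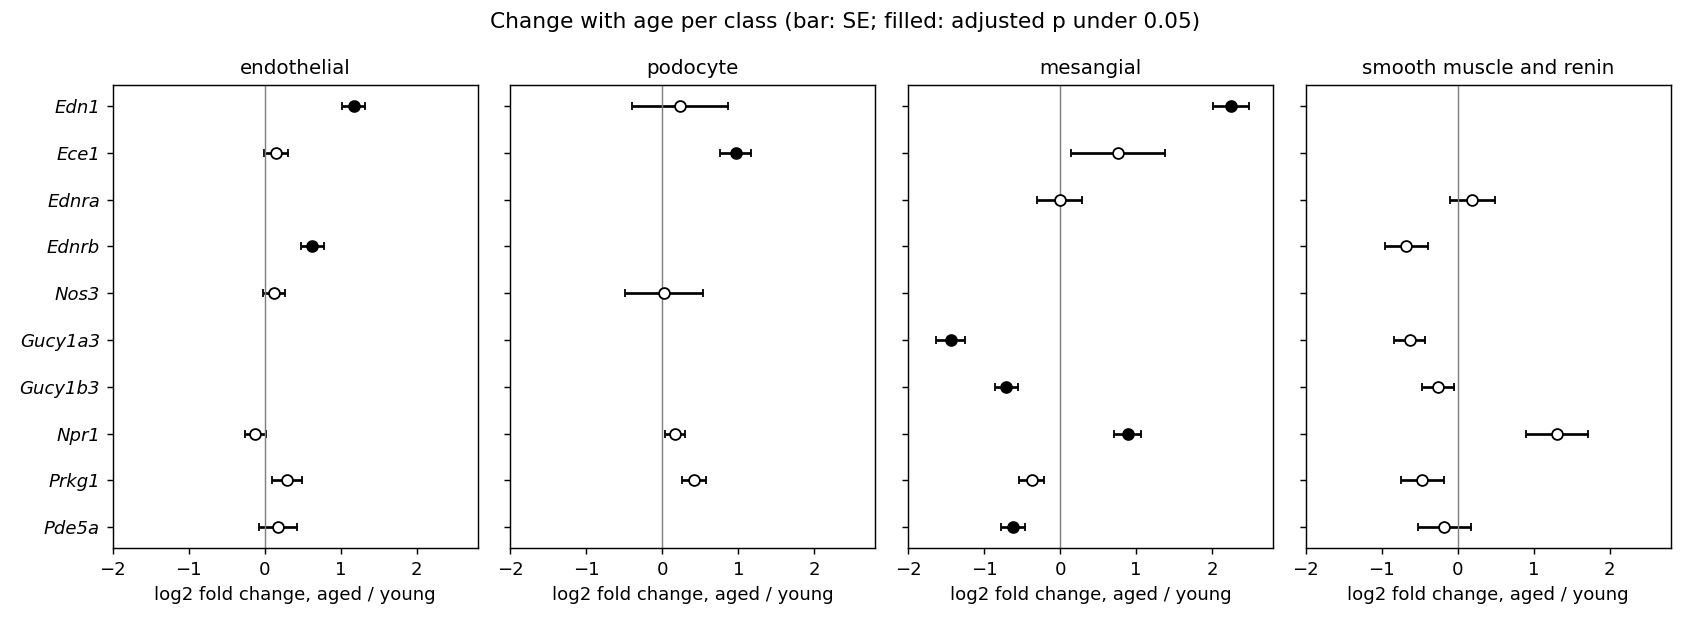
Fitted log2 fold change of aged over young libraries (x axis) for each gene that passed the filter on low counts (y axis) in 4 cell classes, with bars of 1 standard error and filled points where the adjusted p was under 0.05. The filled points are Edn1 and Ednrb in endothelial cells, Ece1 in podocytes, and Edn1, Gucy1a3, Gucy1b3, Npr1 and Pde5a in mesangial cells, and no point is filled in smooth muscle and renin cells.

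Edn1 (ENSMUSG00000021367), the gene of the endothelin peptide, lies at chr13:42301476-42307990 on the plus strand of GRCm38 and has 5 exons, with the gene Gm47118 on the opposite strand overlapping it. Whether the counting used strand is not stated, so reads of such overlapping pairs may not be told apart. Its promoter is shown because Edn1 is the gene of the set that rose in more than 1 class. The sequence is the 250 bases before the RefSeq start at chr13:42301226-42301475 on the plus strand (GRCm38.p6, from RefSeq), 5′ to 3′, and capitals mark matches on either strand to the CCAAT box (letters CCAAT), the GC box (letters GGGCGG) and the CACCC box (letters CACCC):
Edn1: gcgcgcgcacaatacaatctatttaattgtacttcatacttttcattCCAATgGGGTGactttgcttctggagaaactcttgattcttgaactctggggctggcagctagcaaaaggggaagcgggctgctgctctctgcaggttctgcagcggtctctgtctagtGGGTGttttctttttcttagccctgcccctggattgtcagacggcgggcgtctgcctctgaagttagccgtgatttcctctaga
It holds 1 match to the CCAAT box, 2 to the CACCC box and 0 to the GC box, and the CCAAT match lies beside the first CACCC match. Among 32851 RefSeq promoters of the same length, 33.8% hold the CCAAT box, 52.0% the CACCC box and 32.7% the GC box on either strand.

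In endothelial cells Edn1 stood at 146 and 159 CPM in the young libraries (906 and 604 UMIs) and at 319.7 and 309 CPM in the aged libraries (4929 and 4843 UMIs). The groups did not overlap, and the spread within each group was small beside the gap, at 152 ± 9.51 CPM in young and 314 ± 7.55 CPM in aged (SD, n = 2 libraries each). Aged over young this was 1.17 on the log2 scale (SE 0.15, adjusted p = 1.41e-05 by edgeR), and it stayed between 1.15 and 1.19 when any of the 4 libraries was left out. The share of endothelial cells with at least 1 Edn1 UMI was 13.2% and 15.9% in young and 27.5% and 30.4% in aged. With each cell thinned to 1000 UMIs, leaving out 26, 129, 115 and 19 shallower cells, the shares were 8.19%, 9.96%, 17.5% and 17.4%. In podocytes, a class in which Edn1 was near the level of a few UMIs, 0.340% to 0.912% of cells had an Edn1 UMI at a median depth of 4183 to 7689 UMIs, above the 2315 to 3237 of endothelial cells. The podocyte sums held 7, 7, 13 and 3 Edn1 UMIs, with a log2 difference of 0.24 (SE 0.63, edgeR adjusted p = 0.907).

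The endothelial class was a sum over 7 clusters whose shares differed between the ages, so Edn1 was also tested within the 6 clusters that had 20 cells in every library. The cluster whose leading genes included Sele, Il6 and Selp, genes of activated endothelium (c0), made up 3.93% and 3.79% of young and 40.6% and 32.5% of aged endothelial cells. The cluster led by Cyp26b1, Kdr and Col15a1 (c3) made up 50.5% and 49.1% of young and 10.3% and 9.10% of aged endothelial cells. The others were led by Ier5l, Plk2 and Id1 (c1), by Esm1, Igfbp3 and Fbln5 (c6), by Tspan8, Thbs2 and Fbln2 (c9) and by Ddit4l and Sost (c12). Edn1 was concentrated in c9 and c6. In c9, where Edn1 was itself among the 10 leading genes, its level was 858 and 634 CPM in young and 1468 and 1356 CPM in aged libraries. In c6 it was 313 and 695 CPM in young and 916 and 905 CPM in aged libraries. In c0, c1 and c3 every young library lay between 38.6 and 77.2 CPM and every aged library between 109 and 156 CPM.

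Edn1 was therefore higher in both aged libraries than in both young libraries in each of these 5 clusters. It passed the test in 4 of them, with log2 fold changes of 1.62 in c0 (edgeR adjusted p = 0.00314), 1.44 in c1 (adjusted p = 0.000153), 1.08 in c3 (adjusted p = 1.6e-05) and 1.03 in c9 (adjusted p = 0.000112). In c0 the young values rested on 15 and 7 Edn1 UMIs, against 1022 and 714 in aged libraries. The shares of all genes called were 0.552% in c0, 2.83% in c1, 3% in c3 and 4.25% in c9. These 4 calls held with any library left out. In c6 the log2 difference of 1.09 missed the threshold (adjusted p = 0.0745), though it passed without young replicate 2 (1.64, adjusted p = 7.19e-11), aged replicate 1 (1.08, adjusted p = 0.0284) or aged replicate 2 (1.07, adjusted p = 0.0346), and 0.665% of all genes were called there. In c12 the values were 40.9 and 0 CPM in young and 61.0 and 59.3 CPM in aged libraries, with 0 UMIs in young replicate 2 allowing up to 61.1 CPM (3 counts, counting error only), and the gene was not called (adjusted p = 0.783). Of all Edn1 UMIs in endothelial cells, c9 gave 57.4% and 50% in young and 33.2% and 40.7% in aged libraries. Over the same libraries c0 gave 1.66%, 1.16%, 20.7% and 14.7%.

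**Figure D3:**
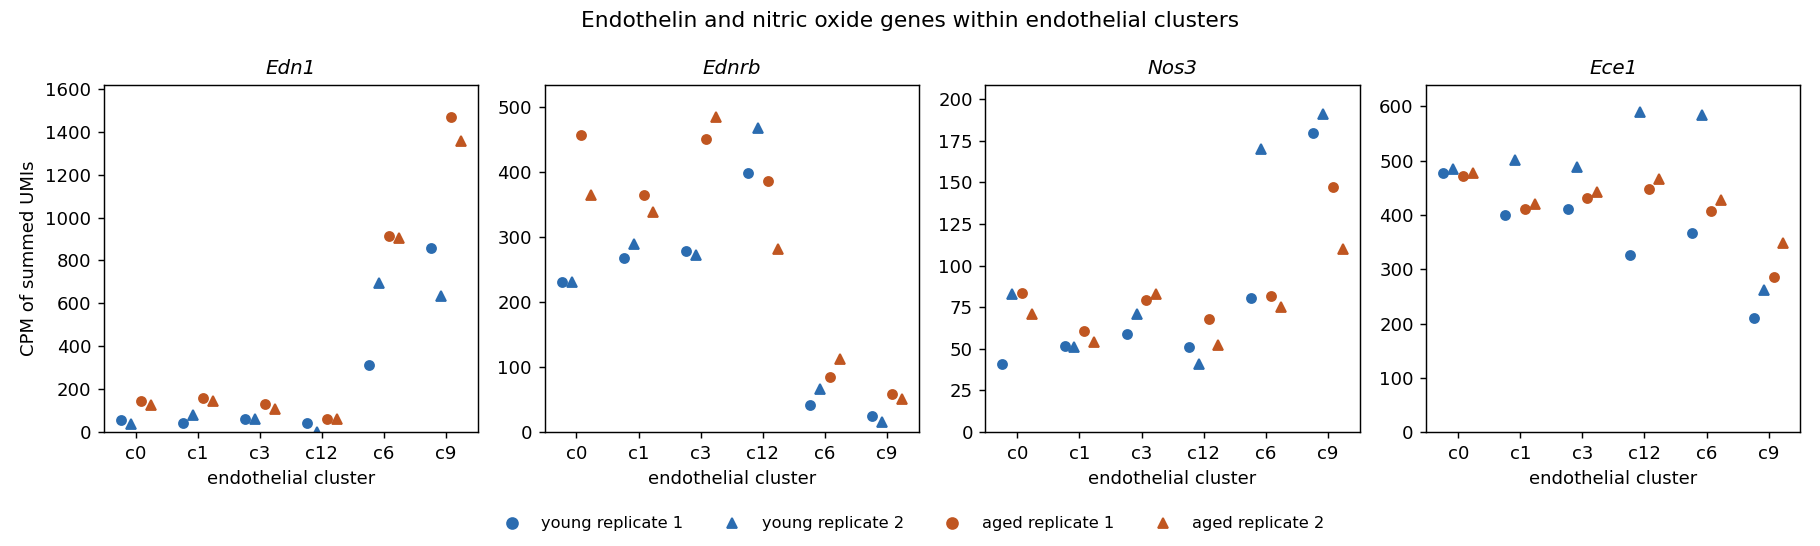
Level of Edn1, Ednrb, Nos3 and Ece1 in CPM of summed UMIs (y axis, starting at 0) in the 6 endothelial clusters tested (x axis), with 1 point for each library and young libraries in blue, aged libraries in orange. Edn1 is highest in c9 and c6, where Ednrb is lowest, and the aged points of Edn1 lie above the young points in each of the 6 clusters, with 0 UMIs in young replicate 2 of c12.

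In mesangial cells Edn1 was lower than in endothelium, at 17.6 and 13.1 CPM in young libraries (25 and 11 UMIs) and 67.6 and 71.8 CPM in aged libraries (244 and 297 UMIs). Young and aged libraries were well apart, with means of 15.4 ± 3.18 CPM in young and 69.7 ± 2.96 CPM in aged (SD, n = 2 libraries each). The fitted age effect on the log2 scale was 2.25 (SE 0.23, adjusted p = 0.000189 by edgeR) and ranged from 2.09 to 2.53 when any library was left out. Mesangial cells with an Edn1 UMI made up 7.60% and 5.84% of young and 18.4% and 21.4% of aged cells, at median depths of 3719, 3633, 4017 and 5663 UMIs. Thinned to 1000 UMIs the shares were 0.769%, 1.44%, 6.37% and 4.71%, the young ones resting on 2 cells each.

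Endothelial RNA was present in the mesangial sums. The 8 endothelial markers stood there at 4.33% and 5.10% of their level in endothelial cells in young libraries and at 4.70% and 6.86% in aged libraries, with 7 or 8 of the 8 detected in each. In the mesangial cells that held no UMI of those markers, an alternative chosen after seeing the data, 57, 27, 114 and 50 cells had 3, 0, 28 and 4 Edn1 UMIs, or 24.2, 0, 89.3 and 25.9 CPM. There the gene did not pass the filter on low counts, and aged replicate 2 lay close to young replicate 1. The part of endothelial RNA in the mesangial difference beyond these counts was not tested.

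Ece1 (ENSMUSG00000057530), which encodes the enzyme that cuts the endothelin precursor to the active peptide, lies at chr4:137862237-137965229 on the plus strand and has 20 exons in its longest model, with Gm13012 overlapping it. In endothelial cells, its main site, Ece1 stood at 386 and 466 CPM in young and 429.7 and 436 CPM in aged libraries. The aged values lay between the young ones, and the log2 difference was 0.15 (SE 0.16, edgeR adjusted p = 0.687). Ece1 was lower in c9, the cluster with the most Edn1, at 209.6 and 262 CPM in young and 285 and 348 CPM in aged libraries, a log2 difference of 0.56 that missed the threshold (adjusted p = 0.0674).

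In podocytes Ece1 was low, at 11.999 and 18.8 CPM in young libraries (92 and 59 UMIs) and 31.0 and 23.6 CPM in aged libraries (171 and 116 UMIs). Both aged libraries were above both young ones, with means of 15.4 ± 4.82 CPM and 27.3 ± 5.27 CPM (SD, n = 2 libraries each). Aged over young this was 0.96 on the log2 scale (SE 0.20, adjusted p = 0.00150 by edgeR). Podocytes with an Ece1 UMI made up 4.75%, 9.31%, 14.4% and 14.1% of cells at median depths of 4183, 5925, 5813 and 7689 UMIs. Thinned to 1000 UMIs the shares were 1.08%, 2.27%, 3.28% and 2.01%, so young replicate 2 lay above aged replicate 2 at equal depth. The call ended without young replicate 1 (log2 difference 0.63, adjusted p = 0.113) and without aged replicate 1 (0.76, adjusted p = 0.123), and the sign turned, to -0.65, when mixed clusters were kept in the class. Endothelial markers stood in the podocyte sums at 0.182% to 0.357% of their endothelial level, and in podocytes with no UMI of them the log2 fold change was 0.99 (adjusted p = 0.00159). Mesangial cells held 2, 4, 14 and 19 Ece1 UMIs, where the log2 difference came to 0.76 (SE 0.62, adjusted p = 0.538).

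Ednra (ENSMUSG00000031616), the type A endothelin receptor that couples to calcium release and contraction, lies at chr8:77663031-77724464 on the minus strand and has 8 exons, with 4933431K23Rik overlapping it. It was highest in smooth muscle and renin cells, at 151 and 108 CPM in young libraries (32 and 20 UMIs) and 165 and 121 CPM in aged libraries (33 and 19 UMIs). The groups overlapped, and the log2 difference was 0.19 (SE 0.29, edgeR adjusted p = 0.846). Mesangial cells held 12.9% of that mean, with 17.6 and 19.1 CPM in young and 18.8 and 14.7 CPM in aged libraries. The mesangial log2 difference was 0.00 (SE 0.30, adjusted p = 0.996), so no change was detectable with 16 to 68 UMIs a library. Podocytes had 0 Ednra UMIs in all 4 libraries, which allows up to 0.391 to 0.957 CPM (3 counts).

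Ednrb (ENSMUSG00000022122), the type B receptor that in endothelium couples to nitric oxide release and takes up circulating endothelin, lies at chr14:103814625-103844402 on the minus strand and has 8 exons. In endothelial cells it stood at 237 CPM in each young library and at 364 and 310.5 CPM in the aged libraries. Both aged libraries were above both young libraries, with means of 237 ± 0.164 CPM and 337 ± 37.7 CPM (SD, n = 2 libraries each). On the log2 scale the rise came to 0.63 (SE 0.16, adjusted p = 0.0130 by edgeR). The call ended without young replicate 2 (0.57, adjusted p = 0.0754) and without aged replicate 1 (0.51, adjusted p = 0.296). The share of endothelial cells with an Ednrb UMI was 29.9% and 28.4% in young and 38.0% and 40.6% in aged libraries, and 15.6%, 15.9%, 21.4% and 19.5% after thinning to 1000 UMIs.

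Among endothelial clusters Ednrb ran opposite to Edn1, low in c9 and c6 and high in the others. In c9 it was 24.8 and 14.7 CPM in young (15 and 7 UMIs) and 59.3 and 51.5 CPM in aged libraries (66 and 75 UMIs). In c3 Ednrb was 279 and 273 CPM in young and 452 and 486 CPM in aged libraries. It rose within c0 (log2 fold change 0.97, edgeR adjusted p = 0.0247), within c3 (0.86, adjusted p = 0.000369) and within c9 (1.55, adjusted p = 0.00164). The call in c0 ended without aged replicate 1 (0.78, adjusted p = 0.282) and the call in c3 without aged replicate 2 (0.79, adjusted p = 0.0938). It was not called in c1 (0.41, adjusted p = 0.209), c6 (1.11, adjusted p = 0.149) or c12 (-0.33, adjusted p = 0.828), although in c6 it passed without young replicate 2 (1.33, adjusted p = 0.0197) and without aged replicate 1 (1.32, adjusted p = 0.0125), and 0.2% of all genes were called in c12. With the 4 calls of Edn1 these made up all 7 calls among 37 tests of the set within clusters.

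In smooth muscle and renin cells Ednrb went from 254 and 183 CPM in young libraries (54 and 34 UMIs) to 155 and 108 CPM in aged libraries (31 and 17 UMIs). The groups did not overlap, but the log2 difference of -0.68 (SE 0.28) missed the threshold (edgeR adjusted p = 0.306). The difference between the age effects of the 2 sites was itself tested and passed: it was -1.33 on the log2 scale, smooth muscle and renin minus endothelial cells (SE 0.29, edgeR adjusted p = 0.00118), where 0.985% of all genes were called. That call ended without young replicate 1 (-1.06, adjusted p = 0.266) and without aged replicate 2 (-1.21, adjusted p = 0.104). Mesangial markers in the smooth muscle and renin sums stood at 6.78% and 9.45% of their mesangial level in young and 24.4% and 29.4% in aged libraries, mesangial cells held 0 to 1.93 CPM of Ednrb, and the part of those markers in the difference was not tested. In the cells of that class with no UMI of the endothelial markers Ednrb was 142 and 135 CPM in young and 144 and 72.7 CPM in aged libraries, which overlapped (log2 difference -0.26, edgeR adjusted p = 0.887).

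Nos3 (ENSMUSG00000028978), the endothelial nitric oxide synthase, lies at chr5:24364810-24384474 on the plus strand and has 26 exons, with Atg9b and Gm15587 overlapping it on the opposite strand. In endothelial cells it stood at 68.7 and 83.6 CPM in young and 81.7 and 69.6 CPM in aged libraries. The groups overlapped fully, with a log2 difference of 0.12 (SE 0.15, edgeR adjusted p = 0.729). Within clusters Nos3 was highest where Edn1 was highest: c9 had 179.9 and 191 CPM in young and 147 and 109.9 CPM in aged libraries. There both aged values were below both young values, with a log2 difference of -0.41 that missed the threshold (adjusted p = 0.257). In c3 both aged libraries, at 79.1 and 82.7 CPM, were above the young ones at 59.2 and 71.1 CPM, again without passing (0.42, adjusted p = 0.337). The share of endothelial Nos3 UMIs from c9 was 25.5% and 28.7% in young and 13.03% and 14.7% in aged libraries, beside a share of cells in c9 of 7.98%, 12.1%, 8.27% and 8.42%. The podocyte sums held 15, 6, 12 and 8 Nos3 UMIs, where the log2 difference came to 0.022 (SE 0.51, adjusted p = 0.987).

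Gucy1a3 (ENSMUSG00000033910) and Gucy1b3 (ENSMUSG00000028005) encode the alpha and beta subunits of soluble guanylate cyclase, the enzyme that binds nitric oxide and makes cGMP, and the annotation names them Gucy1a1 and Gucy1b1. They are neighbours on chromosome 3 with no gene between them, 17737 bases apart, Gucy1a3 at chr3:82092427-82145789 with 9 exons and Gucy1b3 at chr3:82032006-82074689 with 14 exons, both on the minus strand. The Gucy1b3 promoter is shown with that of Npr1, the membrane cyclase, because the genes moved in opposite directions in the same mesangial cells. They are the 250 bases before the RefSeq start, at chr3:82074712-82074961 and chr3:90465867-90466116, both on the minus strand of GRCm38.p6 and from RefSeq, with the same 3 motifs in capitals:
Gucy1b3: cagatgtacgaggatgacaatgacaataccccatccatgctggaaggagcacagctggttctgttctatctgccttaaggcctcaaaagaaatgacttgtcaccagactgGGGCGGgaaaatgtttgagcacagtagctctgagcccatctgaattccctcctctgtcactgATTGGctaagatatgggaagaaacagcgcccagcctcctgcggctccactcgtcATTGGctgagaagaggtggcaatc
Npr1: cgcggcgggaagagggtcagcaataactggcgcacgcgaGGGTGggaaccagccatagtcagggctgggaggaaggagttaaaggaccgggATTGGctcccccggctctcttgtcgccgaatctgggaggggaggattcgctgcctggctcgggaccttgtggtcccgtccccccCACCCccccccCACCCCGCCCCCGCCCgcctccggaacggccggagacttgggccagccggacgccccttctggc
The Gucy1b3 window holds 2 matches to the CCAAT box and 1 to the GC box, and the Npr1 window holds 1 to the CCAAT box, 2 to the GC box and 3 to the CACCC box. Their GC contents are 51.2% and 70.4%. In all, 9 of the 10 genes had a RefSeq promoter in the table used, Nos3 being the other.

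In mesangial cells Gucy1a3 stood at 952 and 947 CPM in young libraries (1352 and 795 UMIs) and at 254 and 396 CPM in aged libraries (917 and 1639 UMIs). The young libraries were almost equal and both aged ones were far below them, with means of 949.7 ± 3.34 CPM and 325 ± 100.5 CPM (SD, n = 2 libraries each). Aged over young this was -1.44 on the log2 scale (SE 0.19, adjusted p = 0.00126 by edgeR) and ranged from -1.74 to -1.17 when any library was left out, called each time. Mesangial cells with a Gucy1a3 UMI made up 88.6% and 85.1% of young and 58.9% and 78.6% of aged cells. At 1000 UMIs a cell the shares were 60.8%, 59.7%, 22.3% and 31.4%. In podocytes 0.205% to 0.912% of cells had one. In mesangial cells with no UMI of the endothelial markers Gucy1a3 remained lower in aged libraries, with a log2 fold change of -1.65 (edgeR adjusted p = 0.000155).

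Gucy1b3 stood at 387 and 397 CPM in young and 229 and 214 CPM in aged mesangial cells. Both aged libraries were below both young ones, with means of 392 ± 6.72 CPM and 221 ± 10.9 CPM (SD, n = 2 libraries each). The fitted age effect on the log2 scale was -0.71 (SE 0.15, adjusted p = 0.0187 by edgeR). With either young library left out it kept its size, -0.71 without young replicate 1 and -0.70 without young replicate 2, but missed the threshold (adjusted p = 0.196 and 0.225). In mesangial cells with no UMI of the endothelial markers it was -0.83 (adjusted p = 0.178).

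Smooth muscle and renin cells, the other class with soluble guanylate cyclase, had 551 and 710.3 CPM of Gucy1a3 in young and 410.4 and 375 CPM in aged libraries. The groups did not overlap, and the log2 difference of -0.63 (SE 0.21) missed the threshold (edgeR adjusted p = 0.170). Gucy1b3 was 414 and 474 CPM in young and 400.4 and 312 CPM in aged libraries, a log2 difference of -0.26 (SE 0.21, adjusted p = 0.661). The age effect on Gucy1a3 was 0.85 higher on the log2 scale in smooth muscle and renin cells than in mesangial cells, which also missed the threshold (adjusted p = 0.0545, with 1.54% of all genes called). Endothelial cells and podocytes held few UMIs of either subunit, and neither passed the filter there.

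Npr1 (ENSMUSG00000027931), the receptor of atrial natriuretic peptide and itself a guanylate cyclase, lies at chr3:90450591-90465866 on the minus strand and has 22 exons, with Gm16048 overlapping it. It was highest in podocytes, at 234 and 255 CPM in young and 278 and 251 CPM in aged libraries. The groups overlapped there, and the log2 difference was 0.17 (SE 0.13, edgeR adjusted p = 0.590). Endothelial cells held 36.5% and mesangial cells 36.1% of the podocyte mean. In endothelial cells the values were 96.2 and 105 CPM in young and 85.9 and 83.7 CPM in aged libraries, a log2 difference of -0.12 (SE 0.14, adjusted p = 0.707).

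In mesangial cells Npr1 was 61.3 and 75.1 CPM in young libraries (87 and 63 UMIs) and 108 and 123 CPM in aged libraries (389 and 509 UMIs). Both aged libraries were above both young ones, with means of 68.2 ± 9.76 CPM and 115 ± 10.8 CPM (SD, n = 2 libraries each). Aged over young this was 0.89 on the log2 scale (SE 0.18, adjusted p = 0.0137 by edgeR). The call ended without young replicate 1 (0.75, adjusted p = 0.215) and without young replicate 2 (1.02, adjusted p = 0.0935). In mesangial cells with no UMI of the endothelial markers it was not called (0.61, adjusted p = 0.568): the values there were 56.5, 110.9, 112 and 117 CPM on 7, 7, 35 and 18 UMIs, so young replicate 2 was at the aged level. Cells with an Npr1 UMI made up 25.1%, 29.2%, 41.5% and 53.0%, and 6.92%, 8.63%, 11.7% and 12.6% at 1000 UMIs. The 8 podocyte markers stood in the mesangial sums at 1.41% and 1.54% of their podocyte level in young and 1.23% and 1.14% in aged libraries.

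In smooth muscle and renin cells Npr1 rested on 7, 10, 17 and 20 UMIs, or 33.0, 53.8, 85.1 and 127 CPM. The aged values were above the young ones, and the log2 difference of 1.31 (SE 0.41) missed the threshold (edgeR adjusted p = 0.147). The mesangial markers in that class, given beside Ednrb, were higher in aged libraries, and their part in this difference was not tested. In the cells with no UMI of the endothelial markers the Npr1 difference was 0.57 (edgeR adjusted p = 0.714).

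Prkg1 (ENSMUSG00000052920), the cGMP-dependent kinase that lowers calcium and myosin phosphorylation in contractile cells, spans chr19:30564489-31765033 on the minus strand and has 18 exons, with Cstf2t, Gm23426 and AC110180.1 overlapping it. Its level was close in smooth muscle and renin cells and in mesangial cells, whose mean was 92.4% of the former. In mesangial cells it was 124 and 139 CPM in young and 91.7 and 95.0 CPM in aged libraries. The groups did not overlap, but the log2 difference of -0.37 (SE 0.16) missed the threshold (edgeR adjusted p = 0.209). In smooth muscle and renin cells it was 141 and 145 CPM in young and 105 and 95.4 CPM in aged libraries, a log2 difference of -0.47 (SE 0.29, adjusted p = 0.524). In podocytes the difference had the other sign, with 34.4 and 39.9 CPM in young and 43.9 and 50.4 CPM in aged libraries, and did not pass (0.41, SE 0.15, adjusted p = 0.116). Without young replicate 2 the podocyte value was 0.47 and passed (adjusted p = 0.0444). Endothelial cells held 12.7 to 16.5 CPM, where the log2 difference came to 0.30 (SE 0.20, adjusted p = 0.467).

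Pde5a (ENSMUSG00000053965), the phosphodiesterase that breaks down cGMP, lies at chr3:122728947-122859374 on the plus strand and has 21 exons, with 4930447N08Rik and Gm34139 overlapping it. It was highest in mesangial cells, and smooth muscle and renin cells held 46.2% of the mesangial mean. In mesangial cells it stood at 218 and 228 CPM in young libraries (310 and 191 UMIs) and 139 and 127 CPM in aged libraries (503 and 526 UMIs). The groups did not overlap, with means of 223 ± 6.58 CPM and 133 ± 8.64 CPM (SD, n = 2 libraries each). The fitted age effect on the log2 scale was -0.62 (SE 0.16, adjusted p = 0.0398 by edgeR). It was -0.64 without young replicate 1 and -0.61 without young replicate 2, and then missed the threshold (adjusted p = 0.244 and 0.301), as it did with DESeq2 (-0.59, adjusted p = 0.122) and in mesangial cells with no UMI of the endothelial markers (-0.75, adjusted p = 0.326). In smooth muscle and renin cells the values were 75.3 and 102 CPM in young and 75.1 and 76.3 CPM in aged libraries, a log2 difference of -0.18 (SE 0.35, adjusted p = 0.903). Endothelial cells held 6.62 to 9.38 CPM, where the log2 difference came to 0.17 (SE 0.25, adjusted p = 0.783).

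Other measures moved with age in the mesangial sums beside these 5 calls. The summed macrophage markers went from 1343 and 1122 CPM to 2046 and 2133 CPM, with 2 and 4 of 8 markers detected in young and 6 and 6 in aged libraries. The summed parietal markers went from 363 and 343 CPM to 2016 and 887 CPM. The 14 dissociation and stress genes summed to 39681 and 40275 CPM in young and 29287 and 37572 CPM in aged libraries, and 4 of them (Egr1, Btg2, Atf3 and Jun) fell while 0 rose. Their part in the mesangial results was not tested. With the mixed clusters kept in the class, most of whose cells came from young replicate 2, the log2 values were 1.35 for Edn1 and -1.05 for Gucy1a3, both still called, and 0.44 for Npr1, -0.28 for Gucy1b3 and -0.15 for Pde5a, which were not (edgeR adjusted p = 0.105, 0.299 and 0.644). In endothelial cells 3 of the 14 stress genes rose (Dusp1, Ier3 and Hspb1) and 0 fell, and the stress sum was 29450 and 28532 CPM in young and 31671 and 37984 CPM in aged libraries. Podocyte markers in the endothelial sums stood at 7.28% and 8.49% of their podocyte level in young and 6.20% and 5.99% in aged libraries. Their part in the endothelial results was not tested either.

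Whether the age effect of a gene differed between classes was tested as an age by class term for 51 pairings of a gene with 2 classes, and 6 passed. The rise of Edn1 was larger in mesangial than in endothelial cells by 1.14 on the log2 scale (SE 0.25, edgeR adjusted p = 0.00748, with 3% of all genes called in that pair of classes). The age effect on Npr1 was higher in mesangial than in endothelial cells by 1.08 (SE 0.18, adjusted p = 0.000518) and higher than in podocytes by 0.72 (SE 0.19, adjusted p = 0.0343, with 3.53% of all genes called). The age effect on Ece1 was higher in podocytes than in endothelial cells by 0.78 (SE 0.18, adjusted p = 0.00430, with 7.22% of all genes called). The age effect on Prkg1 was lower in mesangial cells than in podocytes, at -0.78 (SE 0.20, adjusted p = 0.0199). The sixth is the contrast of Ednrb given above. None of the 6 passed without young replicate 1, and without young replicate 2 the calls of Ece1, Npr1 against endothelial cells and Ednrb were left. The contrast of Ece1 also missed the threshold without aged replicate 1 (0.60, adjusted p = 0.0807), and those of Prkg1 (-0.58, adjusted p = 0.0720) and Ednrb without aged replicate 2.

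The other genes of the pathway were taken from 6 lists with 70 genes, of which 69 were in the gene list. In endothelial cells 48 were tested, 5 rose and 0 fell, and 10.4% called stands beside 6.49% of all genes. Of the 9 cyclic nucleotide phosphodiesterases tested there 3 rose, and their median log2 difference was 0.48 against -0.01 for all genes. Pde4b, which breaks down cAMP, went from 38.6 and 49.8 CPM to 96.0 and 80.5 CPM (log2 fold change 1.13, edgeR adjusted p = 2.46e-05). Pde3a, which hydrolyses cAMP and is inhibited by cGMP, went from 11.7 and 9.23 CPM to 25.8 and 19.2 CPM (1.19), and Pde4d from 11.4 and 10.0 CPM to 30.5 and 16.9 CPM (1.24). Rgs2, a brake on Gq-coupled receptors such as those of endothelin, went from 29.4 and 32.7 CPM to 70.1 and 54.1 CPM (1.13, adjusted p = 5.35e-05). Of 13 genes of nitric oxide synthesis and its control tested in endothelial cells by edgeR, 0 passed in either direction.

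In mesangial cells 43 genes of the lists were tested, 2 rose and 4 fell, so 13.95% were called beside 5.62% of all genes. Gch1, which makes the cofactor of nitric oxide synthases, went from 3.52 and 3.57 CPM to 32.4 and 25.6 CPM (log2 fold change 3.13, edgeR adjusted p = 0.000876). Mrvi1, the inositol trisphosphate receptor-associated substrate of the cGMP kinase, went from 192 and 194 CPM to 95.8 and 117 CPM (-0.75, adjusted p = 0.0185). Rgs4, another brake on Gq signalling, went from 204 and 132 CPM to 53.5 and 45.7 CPM (-1.67), and Plcb2, a phospholipase of receptor signalling, from 26.1 and 20.3 CPM to 6.09 and 6.28 CPM (-1.81). These falls stood in the same class as those of Gucy1a3, Gucy1b3 and Pde5a. Of the 6 genes tested in the list of the cGMP kinase and its targets Mrvi1 was the only one called there, and the list's median log2 difference was -0.31 against -0.01 for all genes.

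In podocytes 40 genes of the lists were tested, 3 rose and 3 fell, so 15% were called beside 6.4% of all genes. Ddah1, which clears an endogenous inhibitor of nitric oxide synthase, went from 12.5 and 12.4 CPM to 38.1 and 32.7 CPM (log2 fold change 1.55, edgeR adjusted p = 1.39e-07). It was among the genes that fell in mesangial cells (-1.44, edgeR adjusted p = 0.0281). Klf4, a transcription factor, went from 233 and 282 CPM to 114 and 104 CPM (-1.19, adjusted p = 4.47e-08). Rgs2 went from 15.5 and 14.99 CPM to 6.17 and 7.32 CPM (-1.14), the opposite of its endothelial change, and Pde4b from 228 and 383 CPM to 440 and 512 CPM (0.71). Of the 14 stress genes 5 rose and 1 fell in the podocyte sums, so 42.9% were called. Their sum there was 43614 and 45149 CPM in young and 42946 and 48957 CPM in aged libraries. Their part in the podocyte results, Ece1 included, was not tested. In smooth muscle and renin cells 26 were tested, with 1 higher and 1 lower, so 7.69% were called beside 1.7% of all genes, in sums where the mesangial markers were higher in aged libraries. There Pde4b rose from 146 and 161 CPM to 325 and 312 CPM (1.09, adjusted p = 0.0308), and Ppp1r12a, the targeting subunit of myosin phosphatase that the cGMP kinase acts on, fell from 937 and 920 CPM to 555 and 452 CPM (-0.83, adjusted p = 0.0459). In parietal cells 26 were tested and 2 rose, Dynll1 (0.77) and Rock2 (0.88), and 0 fell, so 7.69% were called beside 3.29% of all genes. In the same sums 7 of the 14 stress genes fell, and their sum was 21038 and 22557 CPM in young and 10446 and 15302 CPM in aged libraries, and its part in those calls was not tested.

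The genes most like each of the 10 across cell types were ranked by Pearson's r of mean log2(CPM + 1) over the 11 named classes, among 10451 genes, as a description. Edn1 was closest to Jag2 (r = 0.980), Fat4 (0.980) and Sost (0.959), and Ece1 to Flrt3 (0.903), Mcf2l (0.897) and Slc26a10 (0.887). Among the genes closest to Ednra were Rasl12 (0.993) and Itga7 (0.992), and Ednrb was closest to Scn7a (0.963), Lama4 (0.953) and Tcf15 (0.946). Nos3 was closest to Ces2e (0.937), Ushbp1 (0.935) and Cd300lg (0.932). Gucy1a3 was closest to Tmem182 (0.993), Ddr2 (0.991) and Kcne4 (0.990), and Gucy1b3 to Gucy1a2 (0.994), Carmn (0.992) and Mrvi1 (0.987). Prkg1 was closest to Pde3a (0.984), Cald1 (0.977) and Gnao1 (0.976), Pde5a to Casp12 (0.966), Angpt2 (0.960) and Clip3 (0.960), and Npr1 to Slco2a1 (0.939), Sparc (0.937) and Synpo (0.934). The 11 points share the same 4 libraries, so they are not independent, and some immune and tubule points rest on 1 or 2 libraries.

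Of the 8 calls, Edn1 and Gucy1a3 in mesangial cells passed with any library left out, as did Edn1 in endothelial cells, and the other 5 each lost the call without at least 1 library. An exact permutation test of 2 against 2 libraries cannot give a p below 0.333, so the calls rest on the spread that edgeR shares across genes.

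**Figure D4:**
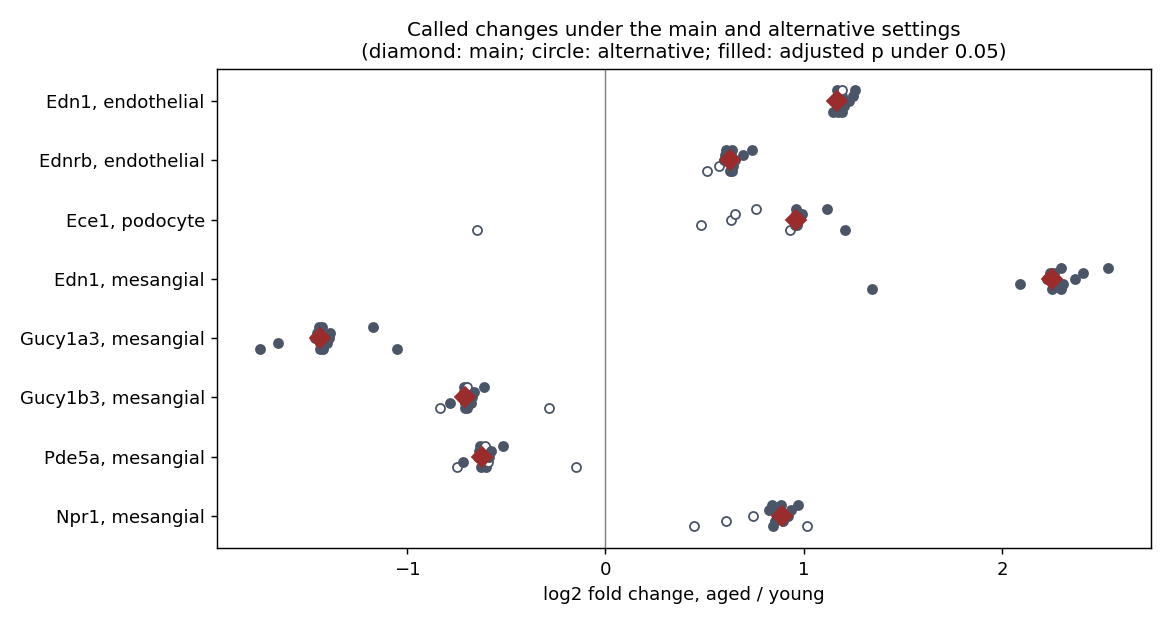
Fitted log2 fold change of aged over young libraries (x axis) for the 8 called changes (y axis) under the setting reported (diamond) and each alternative (circles, filled where the adjusted p was under 0.05). Edn1 in endothelial cells stays near 1.17, Gucy1a3 in mesangial cells stays below -1 throughout, and 1 open circle of Ece1 in podocytes lies at -0.65, on the other side of 0.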

How the data were processed

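The deposited files are 10x matrices of UMI counts, 1 for each of 4 libraries, made by the authors with Cell Ranger: the submitters' processing notes name version 6.0.1, GRCm38 and Partek, the extract protocol in the labels names version 3.1.0, and which version made the counts is not settled. Whole raw counts per gene and cell were used as deposited. A barcode was kept if it had 500 genes detected or more and no more than 20% of its UMIs from mitochondrial genes. An automatic doublet threshold marked 134 of 29876 barcodes (0.449%) and was not used; the highest doublet scores were removed instead, 0.8% per 1000 barcodes (1876 barcodes, 6.28%). Cells were clustered with scanpy 1.11.5 (2000 variable genes without the 10 genes reported, 30 principal components, Leiden resolution 1) into 23 clusters, of which 19 were named from marker lists and 4 were called mixed; the thresholds of naming were set after seeing the data. UMIs were summed per library and class of at least 20 cells, since cells are not replicates.

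Age groups were compared with edgeR 4.0.16 in R 4.3.3 (TMM, filterByExpr, quasi-likelihood F test, Benjamini-Hochberg adjustment over all genes of the class, threshold 0.05), and SE is the log2 fold change over the square root of F. The procedure was tested on simulated data with 200 changed genes a class: 47%, 35%, 40%, 29% and 20% of 2-fold changes and 97%, 96%, 83%, 84% and 85% of 4-fold changes were called in endothelial cells, podocytes, mesangial, smooth muscle and renin, and parietal cells (13057, 10809, 10136, 3169 and 4015 genes). Of the unchanged genes 7, 4, 8, 5 and 3 were called, in the same order of classes. Every simulated gene had the same fixed spread, not estimated from these libraries, so these rates are not the power of the tests reported. Intervals and floors cover counting error only. The genes, lists and tests were chosen with earlier results of these data known. All 10 genes are named wherever they passed the filter, and up to 4 called genes a class, by smallest p, from the pathway lists. Ddah1 in mesangial cells is given besides these. Alternatives were DESeq2 1.42.0, RLE factors, no filter on low counts, a replicate block, each library left out, no doublet removal, a mitochondrial limit of 10%, resolution 0.5, cells named one by one, mixed cells kept, the 10 genes among the clustering genes and, chosen after seeing the data, cells without endothelial marker UMIs and single libraries left out of the test between classes. The replicates of a group were not copies of each other (chi-square per degree of freedom 11.2 and 34.5). Some genes that the rules would name are not reported here.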

Additional observations from a re-analysis of the deposited data

Results flagged for a closer look

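For 6 pairings of a gene with 2 cell classes the age effect differed between the classes in a test of the difference itself (edgeR quasi-likelihood test of the age by class term, adjusted over all genes of the pair). In log2 units the rise of Ece1 in podocytes exceeded its age effect in endothelial cells by 0.78. Npr1 had an age effect in mesangial cells that was 1.08 above that in endothelial cells and 0.72 above that in podocytes. Edn1 rose by 1.14 more in mesangial than in endothelial cells, at a mesangial level that stayed below the endothelial one in every library. Neither Edn1 nor Npr1 was called in mesangial cells with no UMI of the endothelial markers, where Edn1 did not pass the filter. Edn1 was 24.2 and 0 CPM there in young and 89.3 and 25.9 CPM in aged libraries. Npr1 was 56.5 and 110.9 CPM there in young and 112 and 117 CPM in aged libraries. Ednrb differed by -1.33 between smooth muscle and renin cells and endothelial cells, with the lower values of the aged libraries on the muscle side and the higher ones on the endothelial side. The muscle side alone missed the threshold (edgeR adjusted p = 0.306). In smooth muscle and renin cells with no UMI of the endothelial markers its log2 difference was -0.26. Prkg1 differed by -0.78 between mesangial cells and podocytes, although neither class passed the test alone. Each of these 6 contrasts depended on which libraries were included, as given with the main results.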

How the results depend on the processing

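Fitted with a replicate block, the tests called 2 genes in endothelial cells, 1 in podocytes and 5 in mesangial cells. In smooth muscle and renin cells and in parietal cells they called 0. These counts equalled those without the block, but the shares of all genes called did not. In that order of classes the shares were 11.3%, 8.64%, 13.7%, 0.915% and 1.17% with the block. Without it they were 6.49%, 6.4%, 5.62%, 1.7% and 3.29%. Deviations of same-numbered libraries correlated at 0.190, 0.091, 0.068, -0.001 and 0.012 in that order, and 2 numbers cannot show a pairing. Smooth muscle and renin cells and parietal cells had 0 calls in all 15 alternatives. For parietal cells many of these fits could not give a call. No member was tested there with DESeq2, RLE factors, the replicate block, no doublet removal or in cells without endothelial marker UMIs. The same held with the 10 genes among the clustering genes. With cells named one by one, resolution 0.5 or the mitochondrial limit of 10%, 0 of all parietal genes were called. The endothelial count was 0 with no filter on low counts, where 11 of 23200 genes were called against 847 of 13057. The podocyte count was 0 with DESeq2, with cells named one by one, with a mitochondrial limit of 10% and with mixed cells kept. The shares of all podocyte genes called in these settings were 2.12%, 4.72%, 2.89% and 0.0708%, against 6.4% in the reported setting. The mesangial count was 1 in cells without endothelial marker UMIs, where 5 members were tested. There 2.28% of all genes were called, against 5.62% in the reported setting. Leaving out a library gave 1 to 2 calls in endothelial cells, 0 to 2 in podocytes, 2 to 5 in mesangial cells, 7 to 9 in endothelial clusters and 0 to 7 between classes. Each fit with a library left out had 1 library in a group, and the share of all genes called also differed between these fits. In mesangial cells the lower counts came without a young library, where that share was also below the reported setting. Without an aged library the mesangial share was above the reported setting. These counts therefore cannot be read apart from the shares. Why counts and values differed between the settings was not tested. Over all alternatives, the 8 called changes kept direction and call in 94 of 117 values, missed the threshold in 22 and reversed in 1. That 1 was Ece1 in podocytes with mixed cells kept, at -0.65. All others that reversed were not called in the reported setting. In podocytes Edn1 was -1.06 with cells named one by one, -1.56 with mixed cells kept, -0.43 without doublet removal and -1.06 to 0.82 with a library left out, and Nos3 was -0.56, -1.78 and, with the 10 genes among the clustering genes, -0.052, and -0.013 to 0.19 with a library left out. Mesangial Ednra was 0.031 with DESeq2, 0.0028 with RLE factors, 0.085 with cells named one by one, 0.031 with the mitochondrial limit, 0.10 with mixed cells, 0.039 without the filter, 0.020 with the replicate block, 0.0050 at resolution 0.5 and -0.21 to 0.21 with a library left out. Mesangial Ece1 was -0.20 with cells named one by one, -0.75 with the mitochondrial limit, -1.83 with mixed cells (adjusted p = 0.00169) and -0.041 to 1.67 with a library left out, and mesangial Prkg1 was 0.084 with mixed cells. With a library left out, endothelial Pde5a ran from -0.097 to 0.41, smooth muscle and renin Ednra from -0.064 to 0.49 and Pde5a there from -0.37 to 0.0056, the latter at 0.024 with the mitochondrial limit. Depth limits the genes with under about 30 UMIs in a library, such as mesangial Edn1 in young and Npr1 in smooth muscle and renin cells. The same limit holds for Edn1 in c0 and Ednrb in c9 in young libraries.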
